A study of Mus musculus with 27 samples.

Results

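Hox genes encode homeodomain transcription factors that lie side by side in 4 clusters, Hoxa, Hoxb, Hoxc and Hoxd. Within a cluster the order of the genes on the chromosome follows the order in which they are used along the body axis, so the Hox genes that a cell keeps in adult life carry a memory of where it arose. Retinoic acid, the active form of vitamin A, is a classical inducer of genes at the 3′ end of each cluster, through heterodimers of RAR and RXR receptors. In skin, Hoxc13 is best known, as a regulator of hair keratin genes in the forming hair shaft. All 39 genes whose symbol is Hoxa, Hoxb, Hoxc or Hoxd followed by digits were taken, out of 51906 genes in the RNA-seq table and 32285 genes in the single cell matrices, where the same 39 are listed.

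The study cultured mouse hair follicle stem cells (HFSCs) and asked how vitamin A steers their fate. RNA-seq covered 3D HFSC cultures from wild-type and Rxra cKO mice at postnatal day 55, in telogen, the resting phase of the hair cycle, each grown in FBS (fetal bovine serum) or in atRA+PKCi (all-trans retinoic acid and a protein kinase C inhibitor, in a medium where serum was also replaced by B-27). Each genotype had 2 mice by its labels, and the same number in both media was taken as the same mouse. The Rxra cKO line carries Sox9-CreER;Rxra-fl/fl;R26-YFP, in which a tamoxifen-dependent Cre under Sox9 removes part of the retinoid X receptor alpha gene, and all lines had been set up on inactivated feeder cells. Single cell RNA-seq covered wild-type back skin of 2 mice at postnatal day 32, in late growth phase (AnaVI), and wild-type HFSCs cultured from 2 mice under hashtagged conditions: B-27, Rspo (R-spondin), BMP2/4 (bone morphogenetic proteins), Rspo+BMP2/4, and Rspo+BMP2/4+RARi with an inhibitor of retinoic acid receptors. Apart from FBS and B-27, every hashtagged condition also held atRA and PKCi, so BMP2/4 and B-27 cultures differ by these agents too.

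RNA-seq totals ran from 25150300 to 35879800 estimated counts, of which Hox genes took 0.0169% to 0.0521%. Rxra itself had 149 and 122 CPM (counts scaled to 1e6 per library) in FBS and 147 and 143 in atRA+PKCi in wild-type, and 97.2 and 95.7, then 148 and 145, in the libraries labelled Rxra cKO. It was lower in the libraries labelled Rxra cKO in FBS (log2 −0.49 ± 0.0917 SE, edgeR adjusted p = 0.00264) and close to wild-type in atRA+PKCi (log2 0.01 ± 0.0907, adjusted p = 0.927). Counts are per gene, so the deleted part cannot be read apart from the rest, and these libraries are named by their label throughout. Of 7 fibroblast markers, Lum was at 0 everywhere, and their sum lay between 35.8 and 55.4 CPM, highest in wild-type FBS (48.4 to 55.4) and labelled Rxra cKO atRA+PKCi (47.8 to 48.2). Fbln1 alone made up most of it (29.7 to 43.9 CPM), while Pdgfra was lower in atRA+PKCi (0.665 to 1.65 CPM) than in FBS (4.03 to 5.44 CPM) in both genotypes. Mural markers summed to 16.2 to 16.5 CPM in labelled Rxra cKO atRA+PKCi and to at most 1.54 elsewhere, and skeletal muscle markers to 8.33 to 8.48 and at most 1.4. Acta2 alone made up most of the mural sum there (14.8 and 15.1 CPM). In the same libraries Rgs5 was at 1.23 and 0.857 CPM, Tagln at 0.158 and 0.186 CPM and Myh11 at 0. Of the 4 skeletal muscle markers, 1 had enough counts to test. The 6 suprabasal epidermis markers summed to 2150 to 2310 CPM in FBS and 76.4 to 82.1 CPM in atRA+PKCi in wild-type (6 of 6 lower), and to 1050 to 1330 and 433 to 478 CPM in the labelled Rxra cKO (3 of 6 lower, 2 higher). The 3 companion layer markers, all lower in atRA+PKCi in both genotypes, summed to 19600 to 19900 CPM in wild-type FBS and 1950 to 1990 CPM in wild-type atRA+PKCi. In the labelled Rxra cKO their sum was 9200 to 10300 CPM in FBS and 4290 to 4560 CPM in atRA+PKCi. Their part in the Hox results was not tested. In bulk RNA, fewer cells that use a gene and less RNA per cell cannot be told apart.

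To show the sequence on which retinoid receptors could act, the 250 bases before the start are given for 4 Hox genes, taken from RefSeq promoters on GRCm38.p6, chosen where they lie outside untranslated regions: Hoxa5 and Hoxb4, whose RNA rose in atRA+PKCi in both genotypes, Hoxb8, the Hoxb gene with the largest epithelial excess among those with promoters in the table, and Hoxa9, which parted by genotype. Capitals mark the core hexamers of a retinoic acid response element (AGGTCA itself, the variant GGGTCA, the variant AGTTCA and the variant GGTTCA, searched on both strands), and only the Hoxb4 window holds one.
Hoxa5, chr6:52204588-52204837, minus strand, inside introns of Hoxa3 and Gm28308: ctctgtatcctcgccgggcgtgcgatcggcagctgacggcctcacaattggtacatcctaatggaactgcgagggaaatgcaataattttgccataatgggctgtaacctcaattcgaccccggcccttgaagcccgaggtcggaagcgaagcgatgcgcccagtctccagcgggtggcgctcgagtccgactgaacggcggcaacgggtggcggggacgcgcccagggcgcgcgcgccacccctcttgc
Hoxa9, chr6:52227371-52227620, minus strand, inside an intron of a longer Hoxa9 transcript: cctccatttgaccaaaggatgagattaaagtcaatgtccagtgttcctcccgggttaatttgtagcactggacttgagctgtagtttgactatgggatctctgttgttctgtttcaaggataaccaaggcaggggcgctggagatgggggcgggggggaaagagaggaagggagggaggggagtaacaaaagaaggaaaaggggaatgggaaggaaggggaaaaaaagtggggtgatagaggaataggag
Hoxb4, chr11:96318017-96318266, plus strand, between genes: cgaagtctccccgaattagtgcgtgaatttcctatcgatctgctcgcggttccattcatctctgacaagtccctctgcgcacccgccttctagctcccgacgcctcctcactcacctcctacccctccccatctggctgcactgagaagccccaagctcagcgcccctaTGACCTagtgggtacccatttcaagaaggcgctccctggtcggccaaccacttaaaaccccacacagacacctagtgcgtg
Hoxb8, chr11:96281655-96281904, plus strand, between genes: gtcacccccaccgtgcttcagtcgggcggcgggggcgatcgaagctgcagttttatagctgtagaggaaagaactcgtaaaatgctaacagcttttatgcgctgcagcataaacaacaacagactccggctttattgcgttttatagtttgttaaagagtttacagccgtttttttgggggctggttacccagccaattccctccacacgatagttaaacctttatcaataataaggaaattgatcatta
The Hoxa5 window is GC-rich (63.6% G or C, 28 CpG), whereas the Hoxa9 window has 3 CpG. Promoters were listed for 22 of the 39 genes, with 24 windows, of which 9 (37.5%) held a core hexamer, against 12694 of all 32851 windows (38.6%). A direct repeat of these hexamers spaced by 5 bases was in 0 of the 24 windows and in 0.0883% of all windows. A match describes these letters only, and windows farther from the start were not searched.

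On GRCm38, Hoxa lies on the minus strand of chromosome 6 with 11 genes, and Hoxb spans chr11:96194316-96368256 with 10, Hoxc chr15:102921103-103036852 with 9 and Hoxd chr2:74668310-74765142 with 9, the last 3 on the plus strand. Of the 39 genes, 23 overlap another annotated gene, 15 on the same strand and 14 on the opposite strand. Hoxa3 overlaps Hoxa4, Hoxa5 and Hoxa6, and Hoxc5 overlaps Hoxc6, Hoxc8, Hoxc9 and Hoxc10. Reads shared within these pairs could be split either way, and whether counting used strand is not given in the sources used here.

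In wild-type HFSCs, the change from FBS to atRA+PKCi raised most Hox genes of the anterior and middle part of the clusters and lowered 3. Of 22 Hox genes with enough counts to test, 17 rose and 3 fell at an adjusted p under 0.05, against 27.2% and 26.6% of all 15965 genes tested (53.9% in either direction). Their median log2 change was 1.33, beside 0.03 over all genes. By cluster, 5 of 8 Hoxa, 7 of 8 Hoxb and 5 of 6 Hoxc genes rose. With 2 mice per group, the groups rest on few cultures, and p-values measure the spread among them.

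The median change was 2.36 over the 6 Hoxc genes and 0.97 over the 8 Hoxa and over the 8 Hoxb genes. Hoxc8, which patterns the trunk, lay at 1.68 and 0.966 CPM in FBS (mouse 1, mouse 2) and at 48.1 and 49.3 CPM in atRA+PKCi, a log2 change of 5.19 ± 0.162 SE (edgeR adjusted p = 3.88e-08). In counts this was 3055 against 71, a ratio of 36.5 with an exact 95% interval of 28.9 to 46.9 that covers counting error only. Hoxc5 rose from 7.30 and 6.91 to 54.9 and 54.5 CPM (log2 2.94 ± 0.0772, adjusted p = 1.81e-08). The media did not overlap for either gene. Here and below, such statements describe libraries that also gave the calls, and the share of all genes without overlap was not counted. Hoxc4, at the 3′ end of its cluster, went from 2.59 in both FBS libraries to 13.2 and 11.8 CPM (log2 2.27 ± 0.138, adjusted p = 1.96e-06). Hoxc6 went from 7.74 and 6.88 to 21.1 and 21.7 CPM (log2 1.55 ± 0.115, adjusted p = 6.71e-06). Hoxc9 stayed near the floor, at 0 and 0.0773 CPM in FBS and 0.225 and 0.222 CPM in atRA+PKCi, which is 2 against 14 counts. Its call (log2 2.44, adjusted p = 0.0315) was lost with mouse as a replicate block (adjusted p = 0.0569). It was also lost without wild-type FBS mouse 1 (adjusted p = 0.179), wild-type atRA+PKCi mouse 1 (0.0789) or mouse 2 (0.0779), and labelled Rxra cKO atRA+PKCi mouse 1 (0.0613) or mouse 2 (0.0566).

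Among Hoxa genes, Hoxa5, a regulator of thoracic patterning, was the largest riser, from 12.0 and 10.9 CPM in FBS to 64.9 and 59.7 CPM in atRA+PKCi (log2 2.45 ± 0.0865, edgeR adjusted p = 7.25e-08). Hoxa2, which patterns the hindbrain and its neural crest, went from 2.71 and 3.28 to 12.7 and 11.8 CPM (log2 2.03 ± 0.197, adjusted p = 3.75e-05). Hoxa6 went from 1.10 and 1.29 to 3.82 and 3.93 CPM (log2 1.71 ± 0.224). For Hoxa5, Hoxa2 and Hoxa6 both atRA+PKCi libraries were above both FBS libraries. Hoxa3 lay at 7.80 and 4.56 CPM in FBS and 15.7 and 14.6 CPM in atRA+PKCi (log2 1.29 ± 0.218). Hoxa7 rose less, from 39.2 and 37.2 to 60.6 and 59.0 CPM (log2 0.65 ± 0.0656, adjusted p = 4.94e-05). Hoxa4 (log2 −0.24, adjusted p = 0.340) and Hoxa9 (log2 −0.01, adjusted p = 0.992) did not pass the test.

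The Hoxb risers ran from 0.67 to 1.43 on the log2 scale. Hoxb3 went from 10.6 and 9.93 to 29.7 and 25.9 CPM (log2 1.43 ± 0.101, edgeR adjusted p = 4.79e-06), and Hoxb5 from 2.66 and 2.90 to 8.05 and 6.68 CPM (log2 1.4 ± 0.159). Hoxb6 lay at 10.4 and 8.93 CPM in FBS and at 25.9 and 23.9 CPM in atRA+PKCi (log2 1.36 ± 0.104). Hoxb2 went from 10.1 and 10.5 to 20.7 and 21.0 CPM (log2 1.02 ± 0.0932). Hoxb4, studied for its role in blood stem cells, went from 8.69 and 9.15 to 17.6 and 16.1 CPM (log2 0.91 ± 0.108). Hoxb7 went from 21.7 and 23.8 to 41.1 and 38.9 CPM (log2 0.82 ± 0.0860). For Hoxb8, 13.9 and 11 CPM in FBS stood against 21.6 and 18 CPM in atRA+PKCi (log2 0.67 ± 0.149, adjusted p = 0.00494). The atRA+PKCi values of these called genes lay above their FBS values, in the libraries that gave the calls.

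Genes toward the 5′ end were among the fallers. Hoxb9 fell from 19.5 and 17.6 CPM in FBS to 6.99 and 6.91 CPM in atRA+PKCi (log2 −1.42 ± 0.0834, edgeR adjusted p = 1.63e-06). Hoxc13 fell from 12.1 and 12.2 to 5.97 and 6.08 CPM (log2 −1.02 ± 0.104, adjusted p = 5.38e-05). Neither gene's libraries overlapped between media. Per kilobase of exonic length, the highest level in wild-type atRA+PKCi was that of Hoxa5 (33.2 CPM per kb), while in wild-type FBS it was that of Hoxb7 (14.7 CPM per kb), followed by Hoxa7 (13.3).

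**Figure D1:**
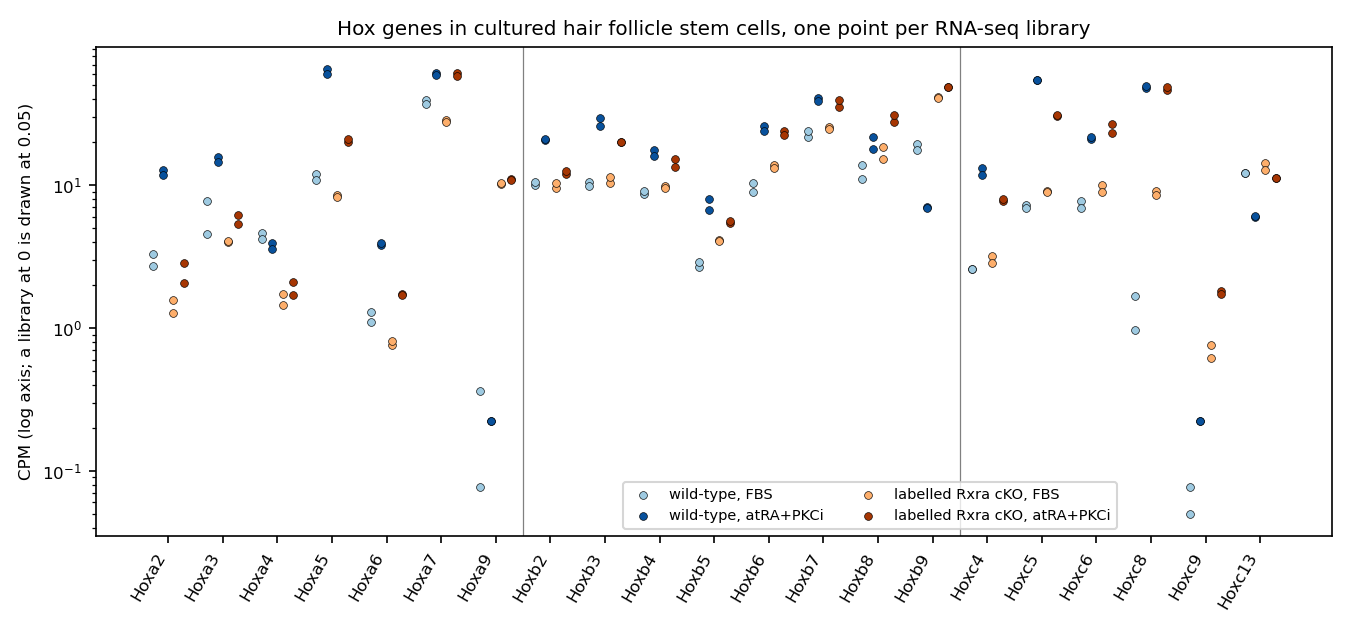
CPM on a log axis for 21 of the 22 tested Hox genes in the 8 RNA-seq libraries, with 1 point per library and vertical lines between the Hoxa, Hoxb and Hoxc clusters; a library at 0 is drawn at 0.05. Hoxc8 in wild-type cells sits near 1 CPM in FBS and near 50 in atRA+PKCi, and Hoxa9 is near 10 CPM only in the libraries labelled Rxra cKO.

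In the cultures labelled Rxra cKO the same change of medium raised 17 of the 22 Hox genes and lowered 0, beside 20.8% and 22.2% of all genes (43.0% in either direction), with a median log2 change of 0.79 (0.02 over all genes). At an unadjusted p under 0.05, 18 of 22 differed, and DESeq2 called 13 higher and 0 lower. The 8 tested Hoxb genes were all called higher. Hoxc8 went from 9.06 and 8.49 CPM to 46.7 and 48.4 CPM (log2 2.44 ± 0.125, edgeR adjusted p = 1.7e-06), Hoxc5 from 9.06 and 8.97 to 30.4 and 31.0 CPM (log2 1.77 ± 0.0745), and Hoxc6 from 10.1 and 9.0 to 23.1 and 26.7 CPM (log2 1.38 ± 0.111). Hoxa5 rose from 8.49 and 8.32 to 20.1 and 20.9 CPM (log2 1.29 ± 0.0889, adjusted p = 8.68e-06), and Hoxa7 from 28.6 and 27.9 to 60.7 and 58.6 CPM (log2 1.08 ± 0.0664). For Hoxc8, Hoxc5, Hoxc6, Hoxa5 and Hoxa7 both atRA+PKCi libraries were above both FBS libraries. Hoxc13, at 14.2 and 12.8 CPM in FBS and 11.2 in both atRA+PKCi libraries, missed the threshold (log2 −0.27 ± 0.0998, adjusted p = 0.0556), as did Hoxa3, Hoxa4 and Hoxa9. With mouse as a replicate block, Hoxb2 (log2 0.29, adjusted p = 0.0512), Hoxb5 (log2 0.44, 0.0824) and Hoxc9 (log2 1.37, 0.0566) were no longer called, which left 14.

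Some of these calls rested on particular libraries labelled Rxra cKO. Leaving out FBS mouse 1 ended the calls of Hoxa2 (edgeR adjusted p = 0.0886), Hoxb2 (0.119), Hoxb5 (0.112) and Hoxc9 (0.0832). Leaving out FBS mouse 2 ended those of Hoxb2 (0.056), Hoxb5 (0.158), Hoxb9 (0.11) and Hoxc9 (0.149). Without atRA+PKCi mouse 1, adjusted p became 0.126 for Hoxa2, 0.078 for Hoxb2, 0.132 for Hoxb5, 0.0954 for Hoxb9 and 0.144 for Hoxc9. Without atRA+PKCi mouse 2 it became 0.19 for Hoxb2, 0.177 for Hoxb5, 0.113 for Hoxb9 and 0.11 for Hoxc9. Wild-type libraries, which share the estimate of the spread, moved 3 calls as well: Hoxb2 was lost without atRA+PKCi mouse 2 (0.0596), Hoxb5 reached 0.05 without FBS mouse 2, and Hoxa3 was called without FBS mouse 1 (0.0132) or mouse 2 (0.0123). The other 12 calls held under every library left out.

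Whether the genotypes responded differently to the medium was tested by the interaction of genotype and medium. It was called for 13 of 22 Hox genes, 9 with a more positive response in wild-type and 4 with a more negative one (11.3% and 13.3% of all genes, 24.6% together). The largest was Hoxc8, whose wild-type response exceeded that of the labelled Rxra cKO cultures by 2.75 ± 0.212 on the log2 scale (edgeR adjusted p = 5.01e-05). Its level in atRA+PKCi was alike in all 4 libraries, 46.7 to 49.3 CPM, and its FBS level was lower in wild-type. Hoxc5 (1.18 ± 0.106, adjusted p = 1.2e-04), Hoxa5 (1.2 ± 0.123, adjusted p = 2.87e-04) and Hoxa2 (1.22 ± 0.293, adjusted p = 0.0171) also responded more in wild-type. Hoxb9 ran the other way. It fell in wild-type atRA+PKCi and, in cultures labelled Rxra cKO, stood at 41.6 and 40.7 CPM in FBS and 48.9 and 48.6 CPM in atRA+PKCi (difference of responses −1.66 ± 0.110, adjusted p = 2.24e-05). Hoxc13 differed by −0.74 ± 0.144 (adjusted p = 0.00627).

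The smaller interactions were less secure. With mouse as a replicate block, 12 were called. The count fell from 13 to 8 without wild-type atRA+PKCi mouse 1, without labelled Rxra cKO atRA+PKCi mouse 1 or without its mouse 2, and DESeq2 called 8. The genes lost in at least 1 of these 3 cases included Hoxa2, Hoxb3, Hoxb5, Hoxb6 and Hoxc4, with edgeR adjusted p between 0.0505 and 0.105. Hoxa7 (−0.43) reached 0.0511 without wild-type atRA+PKCi mouse 2, and Hoxa3 (0.77, adjusted p = 0.113) was called without wild-type FBS mouse 1 (1.21, adjusted p = 0.00487). Hoxa5, Hoxb2, Hoxb9, Hoxc5, Hoxc8 and Hoxc13 kept their calls under every library left out.

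**Figure D2:**
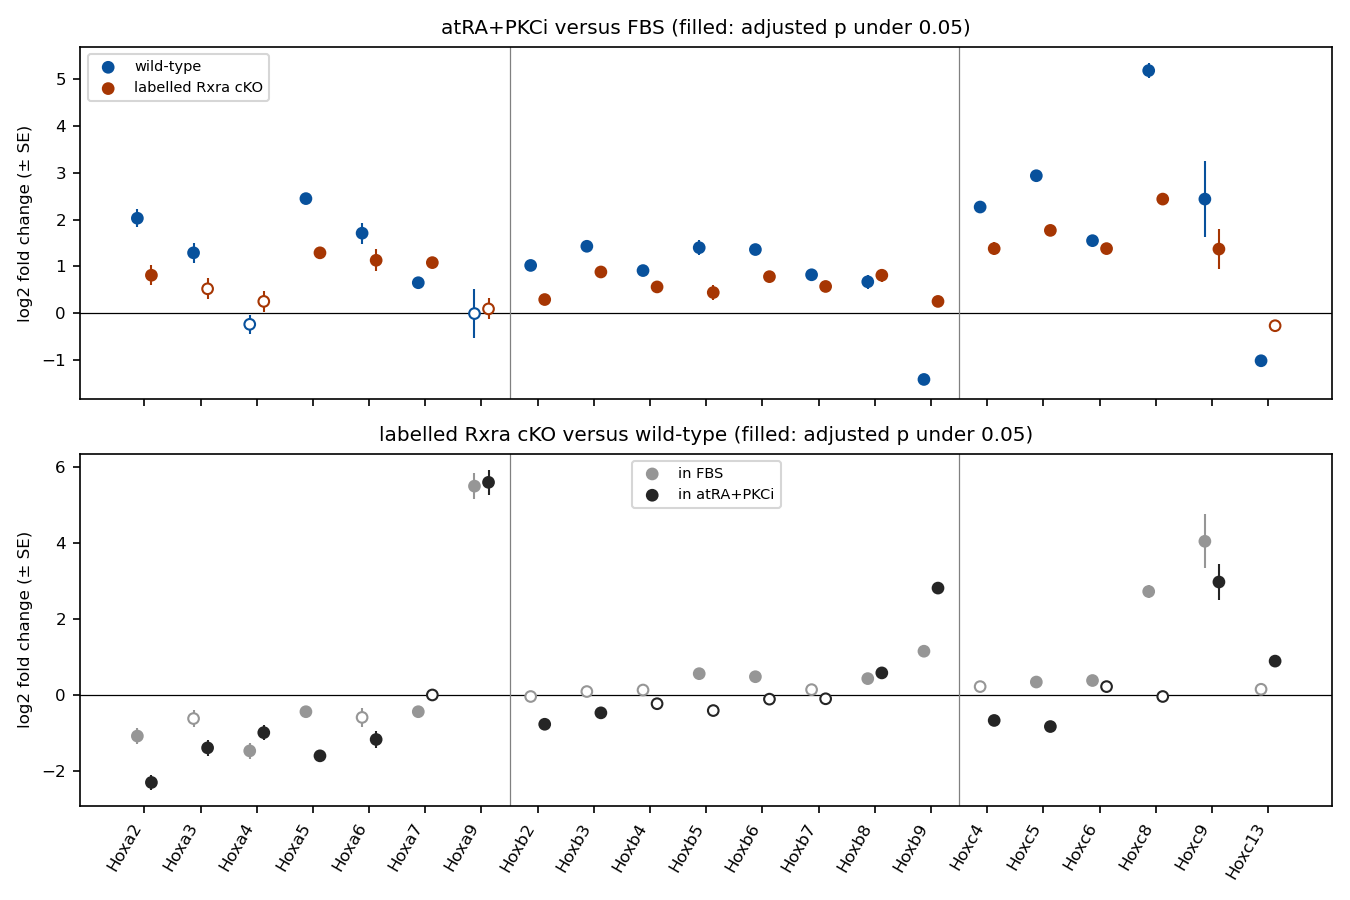
Log2 fold changes with SE for 21 of the 22 tested Hox genes, with atRA+PKCi against FBS in each genotype above and labelled Rxra cKO against wild-type in each medium below; filled points have an adjusted p under 0.05. Wild-type responses are above those of the labelled Rxra cKO for Hoxc8, Hoxc5 and Hoxa5, and Hoxa9 stands more than 5 log2 units above wild-type in both media.

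Comparing the genotypes directly, 9 Hox genes were higher and 4 lower in the libraries labelled Rxra cKO in FBS (22.3% and 20.5% of all genes, 42.8% together), and 5 were higher and 9 lower in atRA+PKCi (23.0% and 20.2%, 43.2% together). DESeq2 called 5 higher and 4 lower in FBS. These comparisons share their libraries with those between media, so their values stand side by side and are not independent. The genotypes come from different mice, so genotype and culture line cannot be told apart beyond 2 mice each. Hoxa9, which patterns the lower trunk, parted them most. Wild-type cells held it at 0.365 and 0.0773 CPM with FBS and at 0.225 and 0.222 CPM with atRA+PKCi. It stood at 10.2 and 10.4 CPM and 11.1 and 10.8 CPM in the labelled Rxra cKO libraries for the same media. The log2 difference was 5.49 ± 0.342 in FBS (edgeR adjusted p = 6.64e-06) and 5.59 ± 0.333 in atRA+PKCi (adjusted p = 3.69e-06). Ratios of counts were 45.8 (exact 95% interval 26 to 89.2) and 49.2 (29.1 to 90.4). Wild-type held 12 counts in FBS and 14 in atRA+PKCi, so Hoxa9 passed the filter on low counts through the labelled Rxra cKO libraries. A call lower there was hardly possible, and the 9 and 5 higher calls include Hoxa9.

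Other genes toward the 5′ end of their clusters were also higher. Hoxb9 was higher by 1.15 ± 0.0756 in FBS (edgeR adjusted p = 9.13e-06) and by 2.81 ± 0.0819 in atRA+PKCi (adjusted p = 1.15e-07), and its libraries did not overlap. Hoxc9 rested on few counts, 0.756 and 0.615 CPM in labelled Rxra cKO FBS and 1.83 and 1.72 CPM in atRA+PKCi. Its ratio to wild-type was 18.2 in FBS (40 against 2 counts, interval 4.72 to 155) and 8.0 in atRA+PKCi (116 against 14 counts, interval 4.58 to 15.1). Hoxc9, like Hoxa9, passed the filter on low counts through the labelled Rxra cKO libraries, so a call lower there was hardly possible. Hoxc8 was higher in FBS only by call (log2 2.72 ± 0.177, adjusted p = 8.63e-06), with −0.04 ± 0.112 in atRA+PKCi. Hoxc13 was higher in atRA+PKCi (log2 0.89 ± 0.104, adjusted p = 1.74e-04).

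Hoxa genes apart from Hoxa9 were mostly lower. In atRA+PKCi, Hoxa2 differed by −2.30 ± 0.198 (edgeR adjusted p = 2.93e-05), with 2.84 and 2.08 CPM in the labelled Rxra cKO libraries. Hoxa5 differed by −1.60 ± 0.0817 (adjusted p = 1.53e-06), Hoxa3 by −1.39 ± 0.217, Hoxa6 by −1.17 ± 0.214 and Hoxa4 by −0.99 ± 0.206. Hoxa4 was lower in FBS as well, with 1.73 and 1.46 CPM against 4.64 and 4.21 CPM in wild-type (log2 −1.47 ± 0.210, adjusted p = 6.33e-04). The median over the 8 Hoxa genes was −0.52 in FBS and −1.08 in atRA+PKCi, while the median over the 8 Hoxb genes was 0.29 and −0.17. In atRA+PKCi, Hoxc5 (−0.83), Hoxb2 (−0.77), Hoxc4 (−0.67) and Hoxb3 (−0.47) were lower too.

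Several genotype calls turned on a library or on the pairing of numbers. In FBS, Hoxb5 was lost without wild-type mouse 1 (edgeR adjusted p = 0.0892) or either labelled Rxra cKO mouse (0.0891 and 0.0671), Hoxc6 without wild-type mouse 2 (0.122) or labelled Rxra cKO mouse 1 (0.156), and Hoxb8 without these same libraries (0.211 and 0.27) or either labelled Rxra cKO atRA+PKCi library (0.0728 and 0.0684). Hoxa3 in FBS (−0.62, adjusted p = 0.0569) was called without wild-type mouse 2 (−0.96, adjusted p = 0.00162) and with the replicate number as a block (−0.59, adjusted p = 0.0415). In atRA+PKCi, Hoxb8 was lost without mouse 2 of wild-type (0.0744) or of labelled Rxra cKO (0.0797), Hoxb3 without wild-type mouse 1 (0.0517) and Hoxa4 without labelled Rxra cKO mouse 1 (0.0541), while Hoxb5 was gained without wild-type mouse 2 (0.0416). The calls of Hoxa9, Hoxb9, Hoxc9, Hoxa2 and Hoxa5 held under every library left out.

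The remaining 17 Hox genes fell under the filter on low counts. The highest count in any library was 10, and Hoxc11, Hoxd3, Hoxd4, Hoxd11, Hoxd12 and Hoxd13 were at 0 in every library, so no Hoxd gene was tested in the RNA-seq. Hoxd8 came closest to the filter. Wild-type libraries held a single count of it, in atRA+PKCi mouse 2, while those labelled Rxra cKO held 0 and 10 counts in FBS and 9 and 7 in atRA+PKCi.

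Partners and regulators of Hox proteins moved unevenly. Of 8 tested TALE homeodomain cofactors, which bind DNA together with Hox proteins, 4 rose and 0 fell in wild-type atRA+PKCi, led by Meis2 (log2 2.39 ± 0.0776, edgeR adjusted p = 4.77e-08). Meis2 rose less in the labelled Rxra cKO cultures (1.32), and the difference of responses was 1.08 ± 0.113 (adjusted p = 2.75e-04). Of 16 Polycomb repressors, 7 rose and 2 fell in wild-type, with Cbx6 at 2.08 and Jarid2 at −1.5. Of 11 Trithorax activators 2 rose and 1 fell. Over all genes tested, 27.2% rose and 26.6% fell (53.9% in either direction), so the Polycomb share is near that background. Among 4 tested noncoding RNAs of the Hox clusters, Hoxaas2 (5.02) and Hoxaas3 (1.54), which run antisense to Hoxa genes, rose in wild-type and 0 rose in the labelled Rxra cKO. Without known strand use, their reads and those of Hoxa3 to Hoxa7 cannot be told apart. Of 9 hair shaft genes listed downstream of Hoxc13, 3 could be tested, of which Foxn1, a regulator of hair keratins, fell by 3.72 in wild-type on the log2 scale while Krt32 rose by 5.55 and Foxq1 by 0.54.

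In anagen skin, Hox genes were read from 13625 and 13608 cells of the 2 mice in 37 clusters, which had been formed without the Hox genes and their antisense and intergenic transcripts. Clusters fell into an epithelial class of 12 clusters (11086 cells) and a mesenchymal class of 13 (13533 cells), named by lists of marker genes, while the limits of general marker levels that set the class of unnamed clusters were chosen after the data were seen. Cells had been sorted against CD45, CD31, CD140a and CD117, so shares of cells are not those of the tissue, yet 7 of 7 fibroblast markers, Pdgfra (which encodes CD140a) among them, were detected in each fibroblast cluster. Fibroblast clusters 2 and 3 came to 97.5% and 99.2% from mouse 1, and clusters 5 and 29 to 6.16% and 5.09%. The mice shared 41 cell barcodes in all. UMIs (unique molecular identifiers) were summed per mouse and class.

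Hox genes divided by cluster and by class. Of 29 tested, 11 were higher in epithelial and 11 in mesenchymal cells, beside 28.9% and 32.4% of all 18507 genes (61.2% in either direction). The 22 called genes had the same direction in each mouse alone, in the same sums that gave the calls. The share of all called genes that do so was not counted. Hoxb genes leaned to the epithelium, with 8 of 9 higher and 0 lower. Hoxc genes leaned to the mesenchyme, with 6 of 7 higher there and Hoxc13 alone higher in epithelium. Of 4 Hoxd genes 3 were higher in mesenchyme, and of 9 Hoxa genes 2 were higher on each side. Summed over its genes, Hoxb took 209 and 184 CPM in the epithelial class of mouse 1 and mouse 2 and 49.0 and 53.2 CPM in the mesenchymal class. Hoxd took 5.56 and 3.91 against 15.1 and 16.4 CPM. Immune clusters 24 and 35 had 40.3 and 91.0 CPM of Hoxb over both mice, so the mesenchymal Hoxb sums lay within the immune range.

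On the epithelial side, Hoxc13 stood at 177 and 164 CPM against 11.9 and 16.1 CPM in mesenchyme (log2 3.41 ± 0.233, edgeR adjusted p = 8.7e-05). Hoxb8 stood at 30.2 and 19.5 against 2.12 and 2.15 CPM (log2 3.35 ± 0.300, adjusted p = 1.97e-04). Hoxb7 had 30.3 and 19.7 against 3.57 and 3.33 CPM (log2 2.67 ± 0.288). In all 3 the lower epithelial value was several-fold above the higher mesenchymal one. Hoxb6 had 37.4 and 34.4 against 4.85 and 5.99 CPM (log2 2.52 ± 0.194), and Hoxb2 51.3 and 42.0 against 17.0 and 14.4 CPM (log2 1.37 ± 0.210). Hoxb3 (log2 1.27), Hoxb5 (1.22) and Hoxb4 (1.07) differed less, and Hoxb1 (3.23 ± 0.618) rested on 41 UMIs in the whole of both libraries. Hoxb1 passed the filter on low counts through the epithelial sums, so a call higher in mesenchyme was hardly possible for it. Of the Hoxa genes, Hoxa5 had 10.2 and 9.92 against 2.76 and 1.98 CPM (log2 1.88 ± 0.248, adjusted p = 9.33e-04) and Hoxa2 1.47 and 1.2 against 0.506 and 0.430 CPM (log2 1.29 ± 0.335). Hoxa7 (log2 0.80, adjusted p = 0.138) passed only with mouse as a replicate block (0.89, adjusted p = 0.00461).

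On the mesenchymal side, the largest differences were in genes toward the 5′ end. Hoxc9 stood at 34.8 and 30.0 CPM in mesenchyme and 1.36 and 1.33 CPM in epithelium (log2 −4.79 ± 0.206, edgeR adjusted p = 5.9e-05). Hoxa10 had 3.72 and 3.08 against 0.0842 and 0.156 CPM (log2 −5.02 ± 0.369), Hoxd9 1.70 and 1.42 against 0.0337 and 0.0692 CPM (log2 −5.09 ± 0.440), and Hoxc10 5.90 and 4.74 against 0.118 and 0.432 CPM (log2 −4.50 ± 0.497). These 4 genes were near absent from the epithelial sums. Hoxa10, Hoxd9 and Hoxc10 passed the filter on low counts through the mesenchymal sums, so a call higher in epithelium was hardly possible for them. The count of genes higher in mesenchyme carries this limit. Hoxa9 had 6.27 and 7.19 against 0.707 and 1.02 CPM (log2 −3.18 ± 0.255) and Hoxd8 9.46 and 9.51 against 1.53 and 1.23 CPM (log2 −2.98 ± 0.245). The more 3′ Hoxc genes differed less, with Hoxc4 at −2.29, Hoxc6 at −1.46, Hoxc5 at −1.42 and Hoxc8 at −1.03, and Hoxd3 at −1.37. Hoxc8 had 68.5 and 58.9 CPM in mesenchyme and 37.7 and 34.4 CPM in epithelium, so it was abundant in both.

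**Figure D3:**
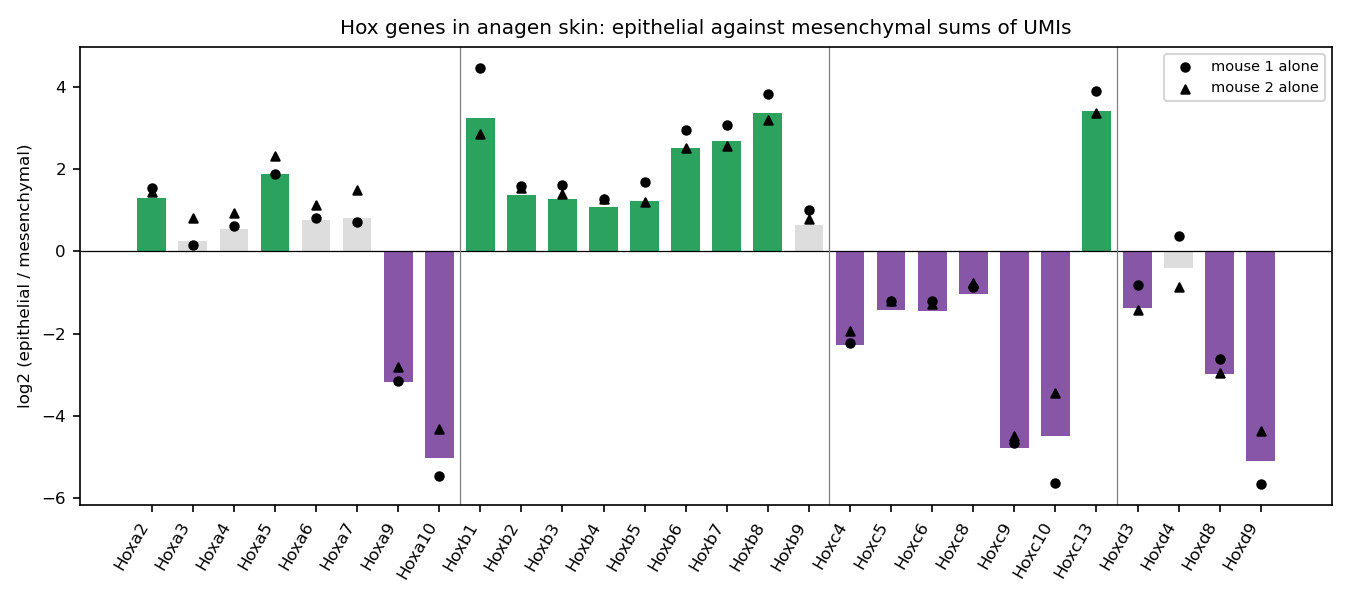
Log2 ratio of epithelial to mesenchymal UMI sums for 28 of the 29 tested Hox genes; bars are the fit over both mice, green where higher in epithelium and purple where higher in mesenchyme at an adjusted p under 0.05, grey where not, and circles and triangles are each mouse alone. Hoxb bars point up, most Hoxc and Hoxd bars point down, and Hoxc13 stands at 3.41.

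Among individual clusters, described without a test, Hoxc13 marked the hair shaft lineage. It reached 572 and 671 CPM in the hair shaft cluster (mouse 1, mouse 2), 514 and 507 CPM in an unnamed epithelial cluster led by Csta1 and Foxq1, and 189 and 195 CPM in hair matrix cluster 12, the dividing cells that feed the shaft. A second matrix cluster had 141 and 160 CPM. By contrast, the inner root sheath had 19.1 and 24.3 CPM and the third matrix cluster 48.5 and 52.6 CPM. Outer root sheath clusters lay between, at 104 and 135, 95.9 and 98.0, and 51.9 and 89.7 CPM. The 9 fibroblast clusters had between 10.6 and 63.1 CPM over both mice. Of cells thinned to 2000 UMIs, 23.1% and 21.3% of epithelial and 2.29% and 2.71% of mesenchymal cells held a Hoxc13 UMI, against 4.25% and 5.26% of immune cells, which should lack it. Unthinned, the shares were 47.3% and 49.2%, 8.81% and 14.4%, and 6.97% and 11.3%. Median depths were 9352.5 and 10412.5, 8436 and 11317.5, and 4570.5 and 5300 UMIs. After thinning, the mesenchymal shares lay below the immune ones, and where either comes from was not tested. In fibroblast cluster 29, 0% of 7 thinned cells of mouse 1 and 11.3% of 151 of mouse 2 held a Hoxc13 UMI. The 5 genes outside the family whose log2(CPM + 1) followed Hoxc13 most closely over the 74 points of 37 clusters in 2 mice were Id1 (r = 0.811), Car12 (0.805), Epha2 (0.805), Rnf180 (0.801) and Elmod1 (0.797), among 16393 genes compared, and points of a mouse share their library. Of the hair shaft genes listed downstream of Hoxc13, 7 of 7 tested were higher in epithelium, beside 28.9% of all genes. Krt86 differed by 5.24 and Krt31 by 4.30 on the log2 scale. Yet Krt31, Krt35, Krt81 and Krt86 were also among the markers that named the hair shaft cluster, which largely set their direction in advance. Foxq1 (3.98), Krt32 (3.98) and Foxn1 (3.24) were not among those markers.

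The dermal papilla cluster, the mesenchymal signalling center of the follicle, held the highest level of 5 of the 28 Hox genes with at least 50 UMIs. These were Hoxc8 (179 and 135 CPM), Hoxc6 (77.0 and 86.4), Hoxc4 (65.0 and 57.1), Hoxc5 (35.2 over both mice) and Hoxd3 (14.8). Matrix clusters held the highest level of 5 others, of which Hoxb6 reached 94.6 and 74.6 CPM in cluster 32, Hoxb3 79.2 and 70.6 CPM there, Hoxb2 71.7 and 63.8 CPM in cluster 12 and Hoxb8 46.7 and 31.3 CPM in cluster 12. Outer root sheath cluster 21, with 144 cells, was highest for Hoxa5 (45.7 and 13.1 CPM), Hoxa3 (33.2 and 39.4 CPM) and Hoxa7. The Hoxa5 values of its mice lay far apart, on 22 and 6 UMIs, and the other outer root sheath clusters followed closely, at 28.9 and 23.1 CPM over both mice.

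Outside the main classes, endothelial cells were highest for Hoxd9 (33.8 and 41.5 CPM), Hoxd8 (19.7 and 33.0 CPM), Hoxd4 (31.0 and 20.2 CPM) and Hoxb9 (3.86 CPM over both mice). A cluster of 257 cells led by Myog and Pax7, genes of muscle progenitors, that passed no naming rule was highest for Hoxa9 (23.6 and 25.4 CPM), Hoxa10 (33.5 and 16.9 CPM), Hoxa4, Hoxa6 and Hoxa2. Intervals of neighbours overlap for several of these genes: Hoxa9 in that cluster had a 95% counting interval of 17.5 to 33.3 CPM and in dermal papilla one of 14.2 to 21.4 CPM. Hoxc9 and Hoxc10 were highest in fibroblast cluster 3 (54.5 and 15.4 CPM over both mice), which is nearly all from mouse 1. Fibroblast cluster 7, with 42.0% of its cells from mouse 1, had Hoxc9 at 59.7 and 39.8 CPM.

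**Figure D4:**
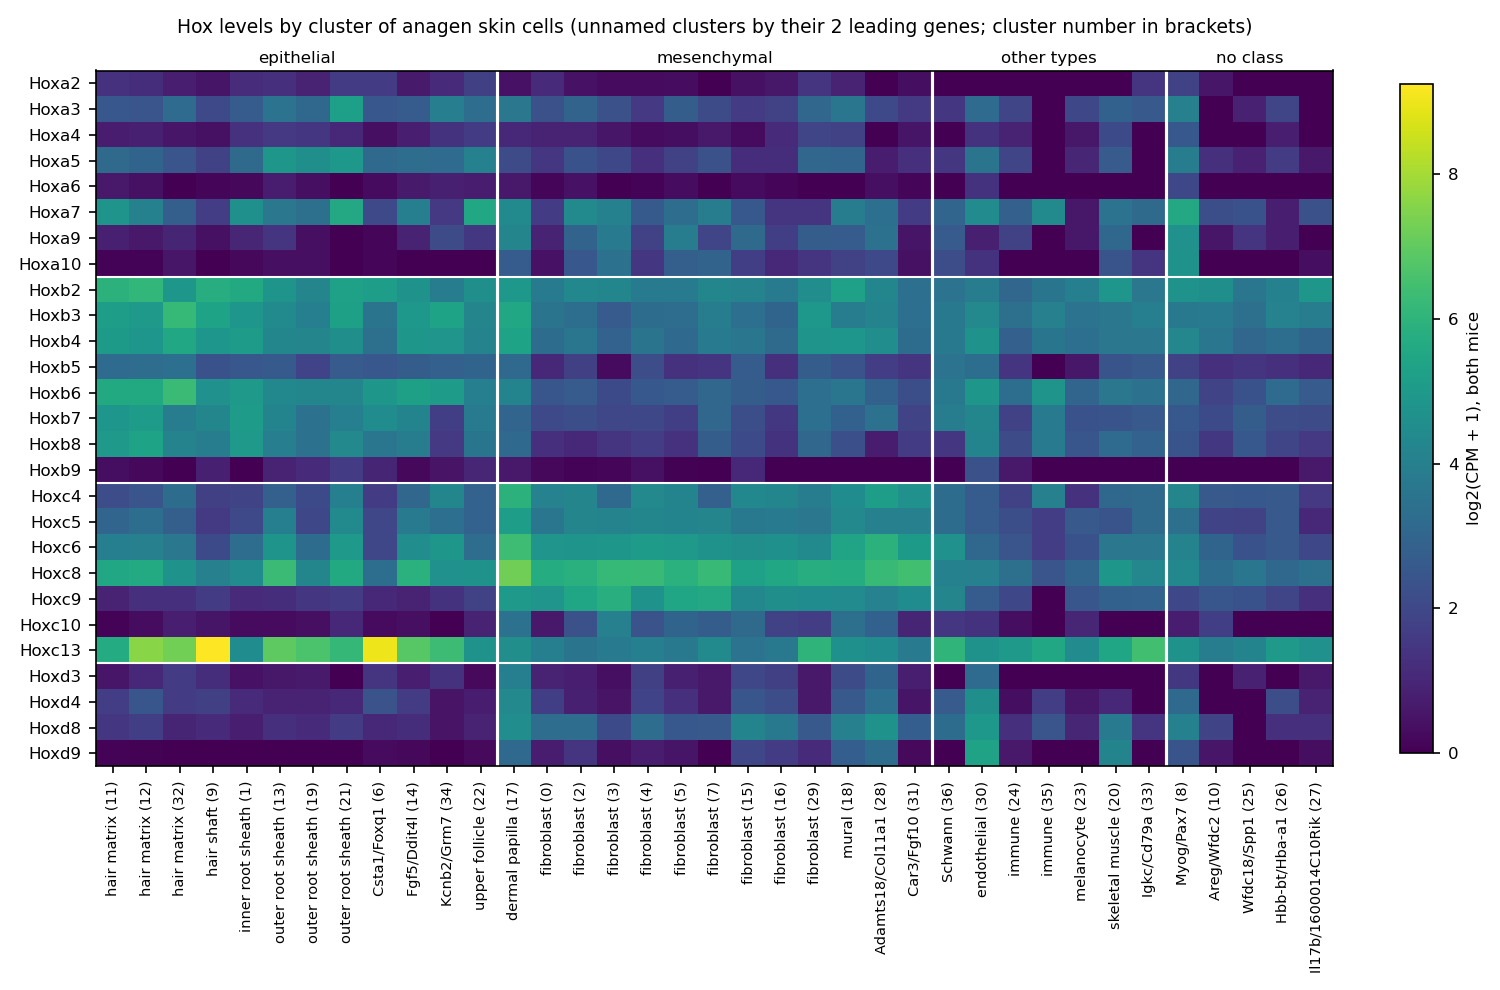
Level of 27 of the 28 Hox genes with at least 50 UMIs in each of the 37 clusters of anagen skin, as log2(CPM + 1) over both mice, with clusters ordered by class and white lines between classes and Hox clusters. The brightest cells are Hoxc13 in the hair shaft and Csta1/Foxq1 clusters, and Hoxa10, Hoxc9 and Hoxc10 are dark across epithelial columns.

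The other 11 genes had 0 to 41 UMIs in the skin of both mice. Hoxa13, Hoxb13, Hoxd12 and Hoxd13, the genes of the most posterior and distal body parts, had 0 UMIs. Of the Hox cofactors, 6 of 9 were higher in mesenchyme and 1 in epithelium, with Meis2 (log2 −4.40) and Meis3 (−3.78) the most mesenchymal and Pbx3 (0.94) the epithelial exception. Among the 6 tested noncoding RNAs, Hoxb5os (2.65) and Hoxaas3 (1.37) were higher in epithelium, and Hoxd3os1 (−3.37) in mesenchyme. Of the Hox genes antisense to Hoxb5os and Hoxaas3, Hoxb5, Hoxb6 and Hoxa5 were higher in epithelium too. Hoxa3, Hoxa4, Hoxa6 and Hoxa7, which also lie antisense to Hoxaas3, were not called in the main fit. Of 16 Polycomb genes 7 were higher in epithelium, 4 in mesenchyme and 5 were not called, and of 11 Trithorax genes 4 were higher in epithelium and 7 were not called. Over all genes, 28.9% were higher in epithelium and 32.4% in mesenchyme (61.2% in either direction).

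Cultured HFSCs gave 222 and 78 singly tagged cells that passed filters in the 2 mice, with 0 shared barcodes. FBS held 0 cells, atRA+PKCi 2 and 1, and neither was tested. B-27 held 5 and 10 cells, Rspo 5 and 6, BMP2/4 113 and 13, Rspo+BMP2/4 92 and 27, and Rspo+BMP2/4+RARi 5 and 21. Col1a1, Col1a2, Col3a1, Dcn and Lum had 0 of 9031788 UMIs, a limit of 0.332 CPM each, while Fbln1 had 212 UMIs and Pdgfra 15. Over all tagged cells, 21 Hox genes had at least 20 UMIs and 13 had 0, Hoxa10, Hoxd3, Hoxd4 and Hoxd9 among these.

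BMP2/4 cultures held more Hox RNA than B-27 cultures for several genes of the Hoxc cluster. Of 13 Hox genes tested, 5 were higher and 0 lower, beside 1.53% and 8.84% of all 6265 genes (10.4% in either direction), with a median log2 difference of 1.60 (0.01 over all genes). Hoxc13 had 44.6 and 43.1 CPM in BMP2/4 and 5.29 and 4.55 CPM in B-27 (log2 3.26 ± 0.804, edgeR adjusted p = 0.0115), and its B-27 values are 1 UMI in each mouse. Hoxc6 had 36.5 and 41.1 against 0 and 4.55 CPM (log2 4.01 ± 0.989, adjusted p = 0.0108). Hoxc9 had 47.3 and 54.8 against 0 and 9.10 CPM (log2 3.44 ± 0.900, adjusted p = 0.0158). For these 3 genes the B-27 level rests on 1 or 2 UMIs, and the ratios of UMIs were 9.08 (exact 95% interval 2.48 to 75.5), 15.2 (2.68 to 602) and 9.86 (2.69 to 82.0). They passed the filter on low counts through conditions other than B-27, so a call lower in BMP2/4 was hardly possible for them. The 5 against 0 calls and the median of 1.60 carry this limit. Hoxc8 had 116 and 127 against 21.2 and 27.3 CPM (log2 2.41 ± 0.637, adjusted p = 0.0171), a ratio of 4.78 (2.58 to 10.0). Hoxb7 had 42.7 and 43.1 against 5.29 and 13.7 CPM (log2 2.24 ± 0.687, adjusted p = 0.0410), and lost its call with mouse as a replicate block (adjusted p = 0.0615). Hoxb6, at 39 and 62.6 against 58.2 and 41.0 CPM, had overlapping values (log2 0.09 ± 0.513, adjusted p = 0.927).

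These 5 calls depend on sums of few cells, and 10 to 17 Hox genes passed the filter when a sum was left out. Without B-27 mouse 1 or BMP2/4 mouse 1, 0 Hox genes were called. Without B-27 mouse 2 the count was 2 and without BMP2/4 mouse 2 it was 1. Leaving out sums of other conditions, which share the spread, gave 3 without either Rspo+BMP2/4 mouse and 8 without Rspo+BMP2/4+RARi mouse 1. DESeq2 called 2. The called genes were higher in both BMP2/4 sums than in both B-27 sums, which are the sums that gave the calls.

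Adding Rspo to BMP2/4 gave 0 calls among the 13 Hox genes and 0 among all 6265 by edgeR. At an unadjusted p under 0.05, 0 of the 13 differed, and DESeq2 called 0. Hoxc13 had 36.1 and 25.3 CPM in Rspo+BMP2/4 (log2 −0.51 ± 0.394 against BMP2/4), Hoxc8 132 and 119 CPM (0.02 ± 0.470) and Hoxb9 61.4 and 88.5 CPM (0.36 ± 0.378). Over the 13 genes the SE ran from 0.363 to 0.507 on the log2 scale. Adding RARi gave 0 calls as well, with 2 of 13 Hox genes at an unadjusted p under 0.05 and 0 called by DESeq2. These were Hoxa5 (0 and 11.6 CPM with RARi, 27.6 and 25.3 without, log2 −1.56 ± 0.743) and Hoxc6 (10.4 and 18.3 CPM with RARi, 40.3 and 43.6 without, log2 −1.41 ± 0.567), both at an adjusted p of 0.959. Hoxc13 had 41.6 and 61.4 CPM with RARi (log2 0.68 ± 0.448, adjusted p = 0.959). In Rspo alone it had 0 UMIs in both mice, with upper exact 95% bounds of 26.9 and 25.4 CPM.

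**Figure D5:**
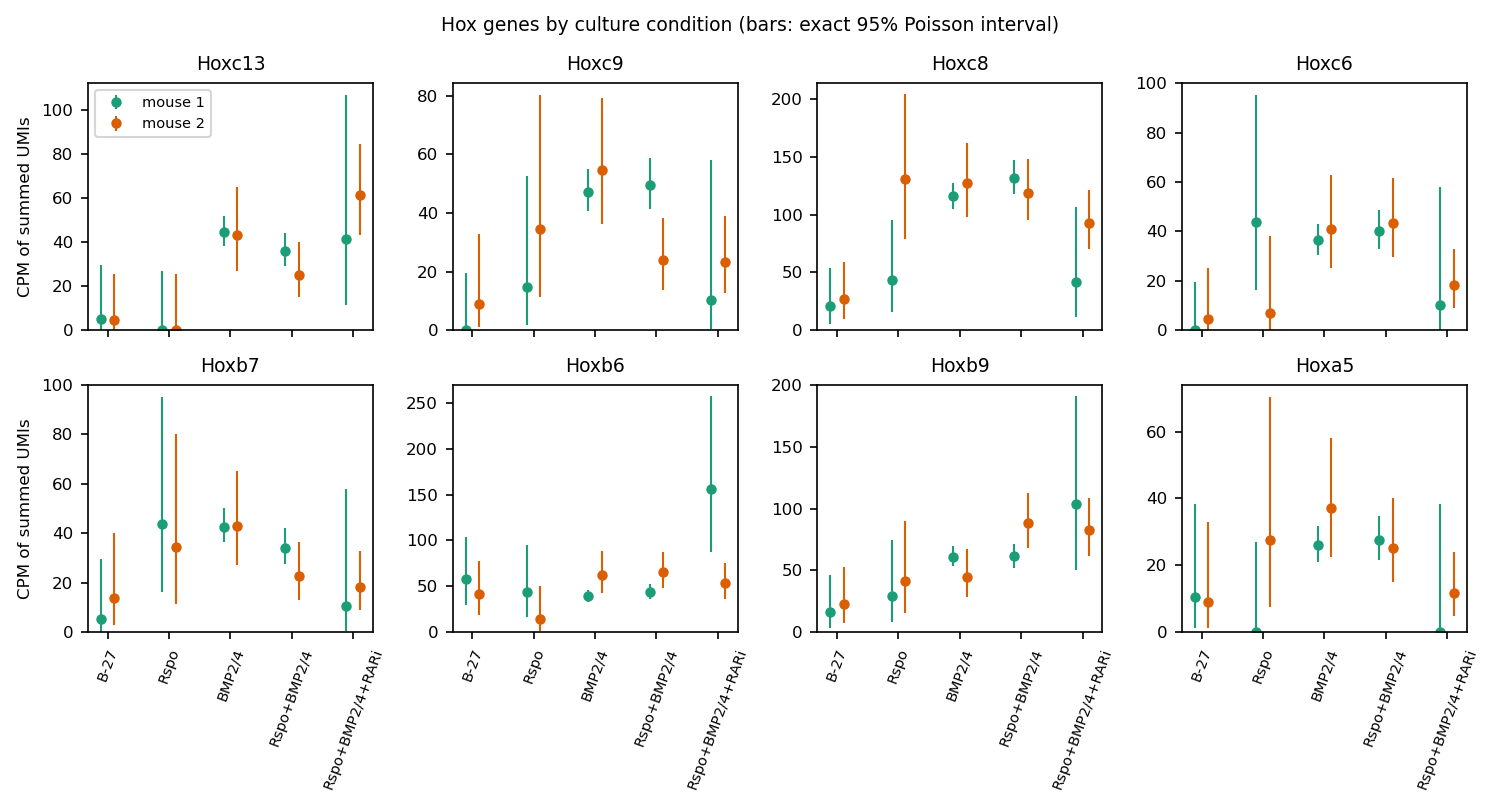
CPM of summed UMIs for 8 Hox genes by culture condition and mouse, with exact 95% Poisson intervals that cover counting error only. Hoxc13 lies at 43.1 to 44.6 CPM in BMP2/4 and near 5 CPM in B-27, and intervals of Rspo and of mouse 1 in Rspo+BMP2/4+RARi are wide, on 5 or 6 cells.

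Set side by side, and not tested across tables that were normalized apart, the epithelial class of skin held Hoxc9 at 1.36 and 1.33 CPM while BMP2/4 cultures held it at 47.3 and 54.8 CPM. Rspo+BMP2/4 cultures differed little from BMP2/4 in Hoxc9 (log2 −0.39 ± 0.438), while the wild-type RNA-seq and B-27 cultures did not share this high level. The RNA-seq means of Hoxc9 were 0.0386 CPM in FBS and 0.223 CPM in atRA+PKCi, below the skin epithelium, and B-27 cultures held 2 UMIs of it. Hoxb9 lay at 0.371 and 0.432 CPM in the epithelial class and at 61.1 and 45.0 CPM in BMP2/4 cultures. Hoxb2 ran the other way, at 51.3 and 42.0 CPM in skin epithelium and 14.9 and 9.79 CPM in BMP2/4 cultures. For these 2 genes the wild-type RNA-seq means lay on the same side of skin as BMP2/4. In FBS and atRA+PKCi they were 18.5 and 6.95 CPM for Hoxb9 and 10.3 and 20.8 CPM for Hoxb2. The Hoxd genes were at or near 0 in both kinds of culture data, with 1 UMI of Hoxd8 in all tagged cells.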

How the data were processed

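RNA-seq covered 8 libraries of cultured HFSCs, 2 mice per genotype and medium. Single cell data covered AnaVI skin and hashtagged HFSC cultures of 2 mice each. For RNA-seq, the authors deposited estimated counts per gene, made with Salmon 1.4.0 on mm10 per the submitters' notes. The single cell files hold whole UMI counts as deposited (Cell Ranger 7.0.1 per the notes). Such counts hold no removal of free RNA.

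Estimated counts were rounded. The quasi-likelihood test of edgeR 4.0.16 in R 4.3.3 was used after filterByExpr and TMM scaling, with Benjamini-Hochberg adjustment over all genes tested and a threshold of 0.05. One fit of 4 group means shared the spread. Skin cells with at least 500 genes, 1000 UMIs and under 10% mitochondrial UMIs were kept, doublets were removed with Scrublet (5.76% and 2.21%), and scanpy 1.11.5 formed clusters at resolution 1 without Hox genes. Names of clusters came from the best-scoring list of markers, with 3 or more detected. Hashtags were called with HTODemux (Seurat 5.3.0, quantile 0.99). UMIs were summed per mouse and class or condition, from at least 5 cells, and tested likewise. The edgeR fits, and not the other steps, were tested on simulated counts with 200 changed genes. For wild-type medium 100% were recovered with 11 false calls. For the skin classes 100% were recovered with 33 false calls, and for the cultures 76% with 13. Promoters are from RefSeq (GRCm38.p6) and overlaps from a GRCm38 annotation. Figures used matplotlib 3.10.9.

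Labels number the source mice 1 and 2 in each medium, and the same number within a genotype was taken as the same mouse. The correlation of deviations from group means, over 15965 genes, was 0.0668 between the media of wild-type mice, −0.0188 between those of labelled Rxra cKO mice, and 0.0201 and 0.000767 across genotypes, where mice differ. The blocked value stands beside a result where it changed the call.

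The Hox genes and the other lists were chosen with earlier results of these data known. All 39 genes are in the counts, 1 of them is not reported here by name, and values are given for RNA-seq genes that passed the filter, reached 1 CPM in a group and were called in at least 1 of the 5 contrasts, for skin genes with at least 50 UMIs, and for cultured genes with at least 20. From each other list, up to 2 called genes per direction are named. Hoxc13 was compared with genes of at least 50 UMIs per mouse. Alternatives were DESeq2 1.42.0, its size factors, no filter on low counts, an adjusted p under 0.01 with an absolute log2 change over 1, replicate blocks, each library left out, other cell filters, hashtag calls and clusterings, and, chosen after seeing the data, classes from named clusters alone. ATAC-seq and CUT&RUN samples were not used here.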

Additional observations from a re-analysis of the deposited data

Results flagged for a closer look

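For 13 Hox genes the response to atRA+PKCi differed between wild-type cultures and those labelled Rxra cKO by the interaction test, of which 12 are given here. As wild-type minus labelled Rxra cKO on the log2 scale, the response was more positive in wild-type for Hoxc8 (2.75), Hoxa2 (1.22), Hoxc5 (1.18), Hoxa5 (1.2), Hoxb5 (0.97), Hoxc4 (0.89), Hoxb2 (0.73), Hoxb6 (0.59) and Hoxb3 (0.55). It was more negative for Hoxb9 (−1.66), Hoxc13 (−0.74) and Hoxa7 (−0.43). For Hoxa7, both genotypes rose, by 0.65 in wild-type and 1.08 in the labelled Rxra cKO. With 2 libraries per group, outliers among replicates could not be tested.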

How the results depend on the processing

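No Hox gene reversed its direction where it was called. With an adjusted p under 0.01 and an absolute log2 change over 1, the called Hox genes came to 7 in the labelled Rxra cKO medium comparison, 6 between genotypes in FBS, 7 between genotypes in atRA+PKCi, 4 in the interaction and 0 between BMP2/4 and B-27. DESeq2 called 8 in the interaction and 2 between BMP2/4 and B-27. Leaving out 1 library at a time gave 19 to 20 calls for wild-type medium, 12 to 18 for the labelled Rxra cKO, 10 to 13 and 13 to 14 between genotypes in FBS and atRA+PKCi, 8 to 13 for the interaction, and 0 to 8 for BMP2/4 against B-27. For the other 2 culture comparisons it gave 0. The replicate block gave 19, 14, 14, 14 and 12 calls in the RNA-seq comparisons in that order, 23 in skin and 4, 0 and 0 in the cultures, and apart from the genes named beside their results and 1 interaction it changed no call. Skin calls kept their direction and their side of the threshold under DESeq2, no filter, other cell filters, a resolution of 0.5 and named clusters alone. Depth limits the culture sums, of which some rest on 5 cells of a mouse. When a left-out library leaves 1 sample in a group, that sample is assumed to vary like the others.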
